A study of Mus musculus with 12 samples.

Results

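The nuclear factor I (NFI) family of the mouse was followed here in whole retina with and without the homeobox gene *Otx2*. The family has 4 genes, *Nfia*, *Nfib*, *Nfic* and *Nfix*. Its members on the array were all probe sets annotated with 1 of these symbols and no other, which gave 4 of 18193 genes with 23 of 45101 probe sets, namely 6 for *Nfia*, 7 for *Nfib*, 5 for *Nfic* and 5 for *Nfix*. Probe sets of 1 gene are not independent: 2 *Nfia*, 2 *Nfic* and 2 *Nfix* probe sets shared a target record with each other, and so did 2 and another 3 of *Nfib*. In addition, *Nfic* 1422565_s_at and 1450661_x_at and *Nfix* 1436364_x_at carry the suffixes that Affymetrix gives to probe sets whose probes can match other transcripts.

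The RNA came from retinas of mice with 2 floxed *Otx2* alleles, either without Cre (control) or with the Crx-Cre transgene (*Otx2* CKO), taken at postnatal day 1 (P1) and P12. Every animal group therefore carried the floxed alleles, and only the *Otx2* CKO groups carried Cre, which is driven by regulatory sequences of the photoreceptor gene *Crx*. Each of the 4 groups had 3 arrays, numbered by experiment 1 to 3. The sources used here do not say whether an array holds 1 animal or a pool, so the p-values below measure the spread between these samples. In such bulk RNA, fewer cells of a type and less RNA per cell cannot be told apart.

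NFI proteins are transcription factors that bind DNA as homodimers or heterodimers through a conserved amino-terminal domain, while their carboxy-terminal parts activate or repress transcription. Their full site is a palindrome, TTGGC and its reverse complement GCCAA separated by 5 bases, of which 1 arm can be bound alone. In the developing nervous system the family is known for the onset of gliogenesis. In the retina *Nfia*, *Nfib* and *Nfix* are known from late progenitors, where they act in leaving the cell cycle and in making late-born cells such as Müller glia and bipolar cells. *Otx2* encodes a homeodomain protein needed for photoreceptor and bipolar cells, whose core site is TAATC.

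*Nfia* and *Nfib* lie on the same chromosome and the other paralogs elsewhere. In GRCm38.p6 of RefSeq, *Nfia* spans chr4:97578066-98118876, *Nfib* chr4:82290173-82506751, *Nfic* chr10:81396191-81431919 and *Nfix* chr8:84704712-84801238. The RefSeq promoter table used here had 1 start of *Nfia*, 1 of *Nfic* and 4 of *Nfix*, and none of *Nfib*. The 250 bases before each start were searched on both strands for TAATC, for the arm TTGGC and for the full palindrome. TAATC occurred before 1 of the 4 *Nfix* starts and not in the *Nfia* or *Nfic* windows, against 19.8% of all 32851 promoter windows. TTGGC occurred before 2 of the 4 *Nfix* starts and not in the *Nfia* or *Nfic* windows, against 41.5% of all windows. The palindrome was in no window of the family and in 0.0365% of all windows. The arrays hold no measure of binding at these places, so a match is only a description of the sequence. Below are the *Nfix* window chr8:84772876-84773125 on the minus strand, shown because it is the window of the family with TAATC, and the *Nfic* window chr10:81427174-81427423 on the minus strand, shown as that of the paralog that did not rise. Both run 5′ to 3′ toward the start. Capitals mark GATTA, the other strand of TAATC, and GCCAA, the other strand of TTGGC.
Nfix: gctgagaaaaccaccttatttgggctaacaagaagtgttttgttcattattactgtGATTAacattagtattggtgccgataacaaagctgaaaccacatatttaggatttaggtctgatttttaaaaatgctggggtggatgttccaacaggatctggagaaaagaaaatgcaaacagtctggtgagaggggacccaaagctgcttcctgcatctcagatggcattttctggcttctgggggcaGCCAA
Nfic: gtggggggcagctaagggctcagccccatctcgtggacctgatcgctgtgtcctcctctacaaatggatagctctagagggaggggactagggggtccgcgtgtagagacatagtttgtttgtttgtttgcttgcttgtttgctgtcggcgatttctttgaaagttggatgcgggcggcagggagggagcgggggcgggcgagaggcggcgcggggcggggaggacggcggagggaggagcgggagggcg

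*Otx2* itself was lower on every *Otx2* CKO array than on every control array of the same age. At P1 its signal was 376, 358 and 282.9 in control and 143.8, 107.8 and 154 in *Otx2* CKO retina. At P12 it was 1057.7, 1047.7 and 802.9 in control and 245, 166.8 and 107.9 in *Otx2* CKO retina. Signals are the deposited linear intensities, whose 2% trimmed mean was 22.0 to 30.3 on the P1 arrays and 96.6 to 172 on the P12 arrays. Because of this difference all tests used quantile-normalized values, log2(signal + 16). A probe set was tested in a comparison if its mean deposited signal reached 50 in 1 of the compared groups, and it was called if its adjusted p was under 0.05. By this rule *Otx2* was called lower at P12 (log2 change −2.72 ± 0.23, adjusted p 1.91e-06, limma). At P1 it was not called (log2 change −1.02 ± 0.23, adjusted p 0.160, limma). The deposited P1 signals of 22% of all tested probe sets were lower in *Otx2* CKO retina without overlap.

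At P12 the *Otx2* CKO retina had more *Nfix* and *Nfib* mRNA than the control retina, and *Nfia* was called higher in 1 of its probe sets. *Nfic* did not rise. Of the 23 probe sets 17 passed the signal limit, and 10 of the 17 were called higher and 0 lower, where 6.78% of all 21390 tested probe sets were called higher and 7.09% lower. The calls were 6 of 6 tested *Nfib* probe sets, 3 of 4 of *Nfix*, 1 of 4 of *Nfia* and 0 of 3 of *Nfic*. Some called probe sets passed the signal limit only through the *Otx2* CKO group. These were *Nfib* 1434101_at, 1434102_at and 1448288_at and *Nfia* 1446990_at, with control means of 35.2, 22.8, 41.4 and 43.5. Their entry into these counts thus rested on their own rise. *Nfia* 1421163_a_at and *Nfix* 1459909_at passed in the same way without a call, and *Nfic* 1422565_s_at passed only through control. The median log2 change was 1.74 over the 17 probe sets and 0.08 over all tested probe sets. At an unadjusted p under 0.05 the counts were 12 higher and 1 lower, against 14.6% and 11.8% of all tested probe sets. Just outside the signal limit lay *Nfib* 1416293_at, with a higher group mean of 49.1, and just inside it *Nfic* 1422565_s_at with 54.2. All these counts are from the fit that does not pair the experiments. With the experiment number within age as a block all 4 tested *Nfia* probe sets were called higher and all 3 of *Nfic* lower. In that fit 19.1% of all tested probe sets were called higher and 13.9% lower.

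*Nfix*, the paralog known for holding back proliferation of neural stem cells, had in its 3 bright probe sets the largest changes relative to their SE in the family. Its brightest probe set, 1436363_a_at, had signals of 427.4, 818.6 and 585.4 in P12 control and 6385.2, 4377.6 and 4078.6 in P12 *Otx2* CKO retina, in the order of experiments 1 to 3. The lowest *Otx2* CKO array was thus far above the highest control array. Its log2 change was 2.90 ± 0.19 (SE, n = 3 against 3), with an adjusted p of 2.05e-07 by limma. Within experiments 1, 2 and 3 the *Otx2* CKO signal was 14.9, 5.35 and 6.97 times the control signal. Probe set 1423493_a_at gave 247.7, 375.3 and 270.8 in control and 4944.3, 2843.9 and 2803.6 in *Otx2* CKO retina, a log2 change of 3.24 ± 0.20 (adjusted p 9.58e-08, limma). Probe set 1436364_x_at, which shares a target record with the brightest one, gave 3.05 ± 0.21 (adjusted p 2.63e-07, limma). It is among the raised genes that the study tabulated from these same arrays, so its direction is not independent evidence.

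The fourth *Nfix* probe set was much dimmer. Probe set 1459909_at had signals of 25.3, 43.7 and 18.8 in control and 64.7, 162.9 and 99.3 in *Otx2* CKO retina. The deposited signals of the groups were apart, but after normalization they overlapped. Its log2 change of 1.04 ± 0.35 missed the threshold (adjusted p 0.0652, limma). With the experiment number within age as a block it passed (adjusted p 0.00246, limma), and so it did without P12 control replicate 2 (0.0229) or P12 *Otx2* CKO replicate 1 (0.00427). That block raised the share of all tested probe sets called higher from 6.78% to 19.1%. With 1 block per experiment number over both ages the probe set passed too (adjusted p 0.0207, limma), against 11.7% of all. It also passed in the deposited signals and with trimmed mean or spike scaling (adjusted p 0.00547, 0.0385 and 0.0321, limma). There 14%, 6.09% and 5.43% of all tested probe sets were called higher. The fifth, 1451443_at, was below the signal limit in every group, with 36.4 as its highest signal on any array, and was not tested.

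*Nfib*, the paralog best known from lung and forebrain maturation, rose in each tested probe set, but its arrays scattered more than those of *Nfix*. Its brightest probe set, 1427680_a_at, gave 137.9, 28.9 and 92.3 in P12 control and 2212.7, 285.3 and 796.6 in P12 *Otx2* CKO retina. In both genotypes experiment 1 was the highest and experiment 2 the lowest. Within the experiments the ratio of *Otx2* CKO to control was 16.05, 9.87 and 8.63, and the fitted log2 change was 2.78 ± 0.51 (adjusted p 0.00207, limma). The other 5 tested probe sets had log2 changes of 1.74 to 3.07, the highest for 1454834_at with 95.3, 24.5 and 81.1 in control and 1877, 348.1 and 845.8 in *Otx2* CKO retina (adjusted p 0.000181, limma). All 6 had *Otx2* CKO arrays entirely above the control arrays, before and after normalization. Probe set 1448288_at (log2 change 2.07 ± 0.43, adjusted p 0.00453, limma) was tabulated by the study as raised on these same arrays. Fitted without the P1 arrays, 1434101_at and 1448288_at lost their calls (adjusted p 0.05001 and 0.0607, limma).

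*Nfia*, the family member required for the switch from neuron to glia production in the spinal cord, had log2 changes of 0.61 to 1.18 in its 4 tested probe sets. Its brightest probe set, 1456087_at, gave 355.8, 140.7 and 298 in P12 control and 1113.6, 360.1 and 632.3 in P12 *Otx2* CKO retina. The deposited signals of the groups did not overlap, although the lowest *Otx2* CKO array was only just above the highest control array. After normalization they overlapped, and the log2 change of 0.93 ± 0.34 missed the threshold (adjusted p 0.0897, limma). In each experiment the *Otx2* CKO array was the higher one, with ratios of 3.13, 2.56 and 2.12, and with the experiment number within age as a block the change passed (adjusted p 0.000358, limma). It also passed without P12 control replicate 1 (adjusted p 0.0315, limma) or P12 *Otx2* CKO replicate 2 (adjusted p 0.0317, limma). With 1 block per experiment number over both ages it passed as well (adjusted p 0.00499, limma), where 11.7% of all tested probe sets were called higher. In the deposited signals it passed too (adjusted p 0.0378, limma), where 14% were. The probe set that was called, 1446990_at, gave 65.6, 12 and 53 in control and 226.1, 97.3 and 135.8 in *Otx2* CKO retina, a log2 change of 1.18 ± 0.29 (adjusted p 0.0143, limma). It lost its call when P12 *Otx2* CKO replicate 3 was left out or each age was fitted alone, with adjusted p up to 0.106 over all alternatives. The remaining tested probe sets, 1421163_a_at and 1438236_at, had log2 changes of 0.85 and 0.61 without a call, and both were called with the block within age (adjusted p 0.0359 and 0.0333, limma), the first also without P12 *Otx2* CKO replicate 1 (0.0159). With that block 19.1% of all tested probe sets were called higher. The other 2 *Nfia* probe sets stayed at or below 38 on all arrays.

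*Nfic*, which is known for its part in tooth root formation, was the exception among the paralogs. Its brightest probe set, 1435527_at, gave 263.4, 713.2 and 590.4 in P12 control and 300.9, 358.6 and 435.9 in P12 *Otx2* CKO retina. The groups overlapped, and the *Otx2* CKO to control ratio within the experiments was 1.14, 0.503 and 0.738. Its log2 change was −0.67 ± 0.33 (adjusted p 0.211, limma), and those of 1422565_s_at and 1429148_at were −0.62 and −0.59 (adjusted p 0.238 and 0.177, limma). After normalization all 3 were lower in *Otx2* CKO retina within each of the 3 experiments. With the block within age all 3 were called lower (adjusted p 0.00638, 0.0155 and 0.0186, limma), where 13.9% of all tested probe sets were called lower, and with 1 block per experiment number over both ages only 1435527_at was (adjusted p 0.0408, limma), against 9.71% of all tested probe sets. Without the pairing, 1435527_at and 1422565_s_at were also called lower when P12 control replicate 1 was left out (adjusted p 0.0411 and 0.0262, limma), and 1429148_at when P12 *Otx2* CKO replicate 2 was (adjusted p 0.0384, limma). A call of lower *Nfic* thus depended on whether the arrays were paired and, without the pairing, on single arrays. The paired fits were not repeated with arrays left out.

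Deposited P12 signals of 13 of the 17 tested probe sets did not overlap between the genotypes, all higher in *Otx2* CKO retina, against 20.8% of all tested probe sets. After normalization 10 of the 17 were apart and higher, against 12.9%. The 13 were 6 of *Nfib*, 4 of *Nfix* and 3 of *Nfia*. They include all probe sets named above that passed the signal limit only through the *Otx2* CKO group. Of those, *Nfib* 1434101_at, 1434102_at and 1448288_at and *Nfia* 1446990_at are also among the 10. Their entry into these counts thus rested on their own rise.

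**Figure D1:**
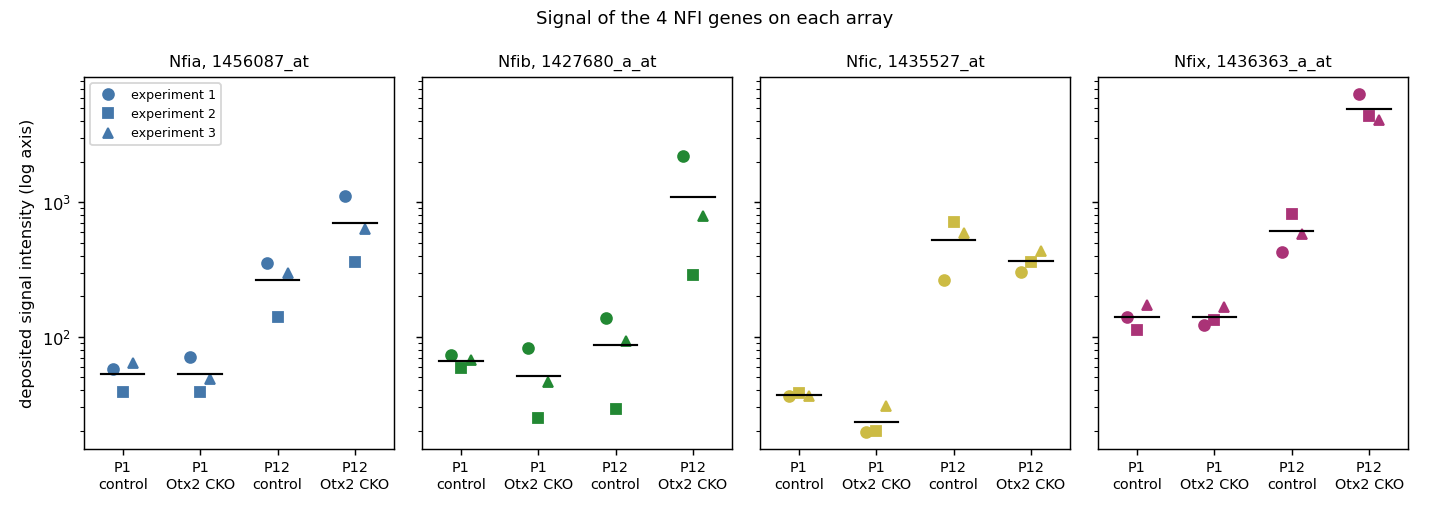
Deposited signal of the brightest probe set of each NFI gene on the 12 arrays, on a log axis (panels: Nfia 1456087_at, Nfib 1427680_a_at, Nfic 1435527_at, Nfix 1436363_a_at; symbols: experiments 1 to 3; bars: group means). At P12 the Nfix signals of Otx2 CKO retina (4078.6 to 6385.2) lie above all control signals (427.4 to 818.6), while those of Nfic overlap; signals are not scaled between the ages and are not to be compared between genes.

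At P1 no NFI gene differed between the genotypes by the test. Only 7 probe sets passed the signal limit, 3 of *Nfib*, 3 of *Nfix* and 1 of *Nfia*, and 0 of the 7 were called, or had an unadjusted p under 0.05, in either direction by limma. Of all 8384 probe sets tested at P1, 0% were called higher and 0.298% lower, and 0.942% and 1.35% were so at the unadjusted p. The 7 log2 changes lay between −0.33 and 0.33 with a median of 0.15, beside −0.01 over all tested probe sets. *Nfix* 1436363_a_at gave 139, 112.1 and 172.1 in control and 122.8, 133.6 and 164.9 in *Otx2* CKO retina, so that the groups overlapped. *Nfib* 1427680_a_at gave 73.7, 58.6 and 67 in control and 82.2, 24.9 and 46.3 in *Otx2* CKO retina, also overlapping.

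*Nfia* 1456087_at ran from 38.6 to 63.4 in P1 control and from 38.6 to 70.8 in P1 *Otx2* CKO retina. *Nfic* was not tested at P1, as none of its probe sets reached the limit, and 1435527_at gave 36, 37.9 and 36.2 in control and 19.6, 19.9 and 30.6 in *Otx2* CKO retina. Of the 7 tested probe sets, 1423493_a_at of *Nfix* alone did not overlap between the genotypes after normalization, where 4.83% of all tested probe sets were apart and higher, and its deposited signals overlapped. The untested *Nfia* 1421163_a_at and 1438236_at were also apart and higher after normalization. In the deposited signals 1438236_at overlapped. There 1421163_a_at was apart and higher too, with 12.1 to 14.1 in control and 15.3 to 27.3 in *Otx2* CKO retina. This held for 30 of all 8384 tested probe sets. Its log2 change was 0.54 ± 0.40, at signals below the limit. The deposited signals of *Nfic* 1435527_at were lower in *Otx2* CKO retina without overlap, as were those of 22% of all tested probe sets, but they overlapped after normalization, and the other 4 *Nfic* probe sets overlapped on both scales.

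The difference between the genotype effects at the 2 ages was tested directly. Of 17 tested NFI probe sets 7 had a higher effect at P12 than at P1, 4 of *Nfib* and 3 of *Nfix*, and 0 a lower one, where 1.1% and 2.82% of all 21530 tested probe sets did. For *Nfix* the log2 difference of the effects was 2.70 to 2.91 over these 3 probe sets (adjusted p 3.53e-05 to 5.71e-05, limma). For *Nfib* it was 1.93 to 3.40 over the 4 called probe sets (adjusted p 0.00388 to 0.0320, limma). Of these, 1434102_at passed the signal limit only through the P12 *Otx2* CKO group, so its entry rested on its own rise. The *Nfia* differences of 0.31 to 1.15 and the *Nfic* differences of −0.48 to −0.33 were not called. With the block within age 12 NFI probe sets were called higher, against 8.7% of all tested probe sets, among them 1446990_at and 1456087_at of *Nfia* (adjusted p 0.0164 and 0.0283, limma). With 1 block per experiment number over both ages 1446990_at was called as well (adjusted p 0.0419, limma), against 3.03% of all tested probe sets.

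**Figure D2:**
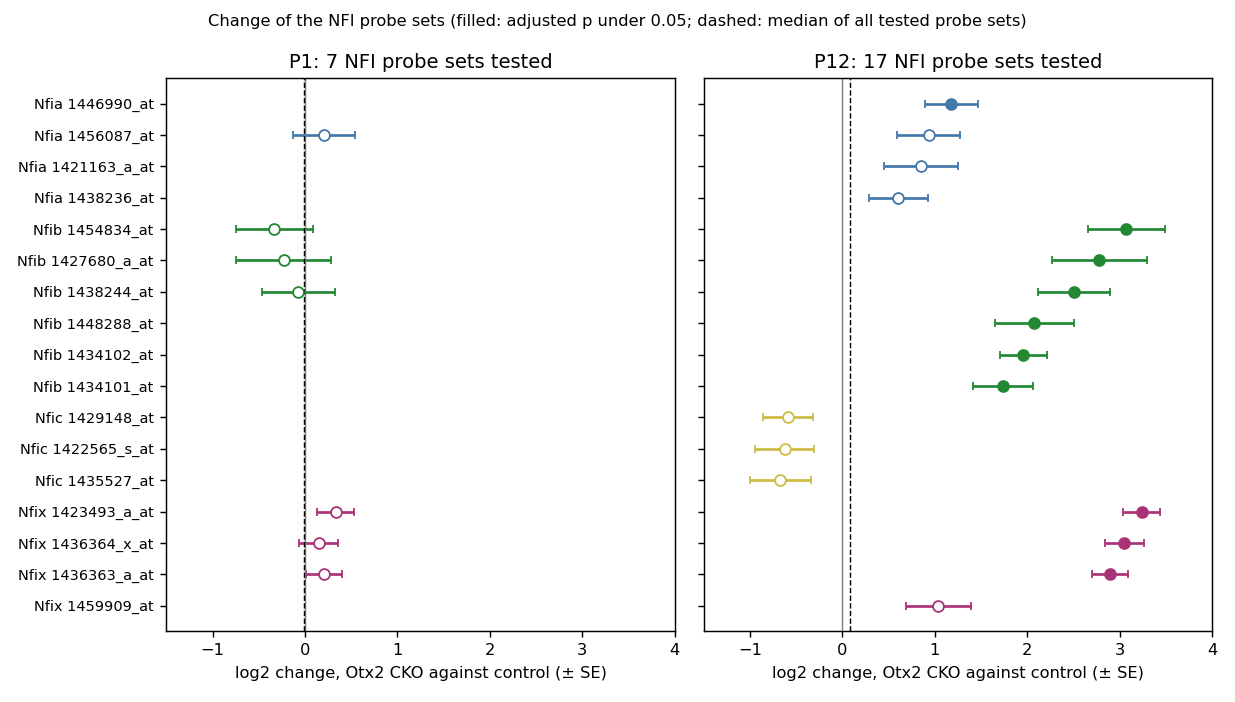
Log2 change of each tested NFI probe set between Otx2 CKO and control retina at P1 (left) and P12 (right), with its standard error from the fit over 12 arrays. At P12 all Nfib and Nfix changes are above 1, the Nfia changes lie between 0.61 and 1.18 and the Nfic changes between −0.67 and −0.59, while at P1 all lie between −0.33 and 0.33.

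The order of the 4 groups differed between the paralogs. Normalized *Nfix* 1436363_a_at was 343 ± 63.3 in P1 control, 396 ± 69.3 in P1 *Otx2* CKO, 413 ± 64.2 in P12 control and 3172 ± 404 in P12 *Otx2* CKO retina (mean ± SD, n = 3 each). The first 3 groups lay within their spread of each other and the fourth stood apart. Normalized *Nfib* 1427680_a_at was 163 ± 17.9, 144 ± 63.1, 63.1 ± 37.0 and 603 ± 452 in the same order, so P12 control was the lowest group. *Nfia* 1456087_at was 129 ± 28.4, 150 ± 28.1, 200 ± 91.3 and 384 ± 136, with neighbouring groups within their spread. *Nfic* 1435527_at was 88.9 ± 5.04, 68.7 ± 20.6, 348 ± 129 and 213 ± 83.7, and there both P12 groups stood above both P1 groups.

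Maturation of the control retina from P1 to P12 moved the paralogs in different directions on the normalized scale. *Nfic* was called higher in 2 of 3 tested probe sets (log2 changes 1.43 and 1.72, adjusted p 0.000912 and 0.00103, limma), where 20.1% of 18560 tested probe sets were called higher. All 3 passed the signal limit only through P12 control. The P1 control means were 8.4 for 1429148_at, 36.7 for 1435527_at and 6.8 for 1422565_s_at, so their entry rested on their own rise. *Nfib* 1454834_at was called lower (log2 change −1.48, adjusted p 0.0138, limma), where 14.5% were, and the other tested *Nfib* probe sets were at −1.29 and −1.02 without a call (adjusted p 0.0653 and 0.0577, limma). No probe set of *Nfia* (0.49 and 0.77) or *Nfix* (0.26 to 0.48) was called. These age changes depend on the scaling, since over all tested probe sets the median was 0.04 after normalization, 0.63 with scaling to the spiked control RNAs and 1.45 in the deposited signals. In the deposited signals 8 of 11 NFI probe sets were called higher and 0 lower, where 82.7% of all tested probe sets were called higher. With spike scaling the counts were also 8 and 0 of 11, where 47.2% of all were higher. *Nfib* 1454834_at stayed lower with spike scaling but lost its call (log2 change −0.87, adjusted p 0.134, limma). In the deposited signals its change was near 0 (−0.04, adjusted p 0.944, limma). The call of lower *Nfib* therefore depends on the scaling.

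Between P1 and P12 in the *Otx2* CKO retina, 14 of 16 tested NFI probe sets were called higher and 0 lower, where 13.7% and 8.7% of 20638 tested probe sets were. The 14 were 4 of 4 tested for *Nfix*, 5 of 6 for *Nfib*, 3 of 4 for *Nfia* and 2 of 2 for *Nfic*. Some of them passed the signal limit only through the P12 group. These were *Nfia* 1438236_at and 1446990_at, *Nfib* 1434101_at, 1434102_at and 1454834_at, *Nfic* 1429148_at and 1435527_at, and *Nfix* 1459909_at. Their P1 means were 5.5 to 42.7, so their entry into this count rested on their own rise. The *Nfix* log2 changes reached 2.96 to 3.38 for the 3 bright probe sets. These values depend on the scaling too: they were 4.97 to 5.41 in the deposited signals, where 96.2% of all tested probe sets were called higher, and 3.35 to 3.86 with spike scaling, where 37.4% were. Without P1 *Otx2* CKO replicate 2 the count was 6, and it was 9 without P1 *Otx2* CKO replicate 3 or P12 *Otx2* CKO replicate 3. The share of all tested probe sets called higher was 10.2%, 9.63% and 10.1% there, in the same order. This comparison shares its P12 *Otx2* CKO arrays with the genotype comparison at P12.

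The 4 paralogs were compared with each other through the log2 ratio of their brightest probe sets on the same array. Levels of different probe sets cannot be compared, so only the change of a ratio between genotypes is read. The 6 pairs at 2 ages made 12 exact two-sided permutation tests of 3 against 3 arrays, which cannot give a p below 0.1. At P12 the *Nfib* to *Nfic* ratio was −2.25 ± 1.25 in control and 1.197 ± 1.67 in *Otx2* CKO retina (mean ± SD, n = 3), a change of 3.45 ± 1.21 (SE, exact permutation p = 0.1, adjusted p = 0.24). The *Nfic* to *Nfix* ratio changed by −3.57 ± 0.48 (exact permutation p = 0.1). In both pairs the 3 arrays of one genotype lay apart from the 3 of the other.

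The ratios of *Nfia* to *Nfib* and *Nfix* were lower in *Otx2* CKO retina, without passing the test. The *Nfia* to *Nfib* ratio changed by −1.85 ± 0.41 and the *Nfia* to *Nfix* ratio by −1.97 ± 0.57 (exact permutation p = 0.1 each), with the arrays apart. The *Nfia* to *Nfic* ratio changed by 1.60 ± 0.88 (exact permutation p = 0.2), with overlap. The *Nfib* to *Nfix* ratio changed by −0.12 ± 0.83 (exact permutation p = 0.7), also with overlap. At P1 the *Nfic* to *Nfix* ratio alone was apart (−0.54 ± 0.20, exact permutation p = 0.1), and the other 5 pairs overlapped. None of the 12 tests reached an adjusted p under 0.24. Taken within experiments 1, 2 and 3, the *Nfib* to *Nfix* ratio changed at P12 by −0.06, −0.20 and −0.09 (mean −0.12 ± 0.04, SE) and the *Nfia* to *Nfic* ratio by 1.45, 1.89 and 1.47 (mean 1.60 ± 0.14). All 6 pairs kept 1 sign over the 3 experiments at P12, and each gave an exact two-sided sign-flip p of 0.25, the smallest that 3 experiments allow. This pairing of the ratios was added after the data were seen.

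**Figure D3:**
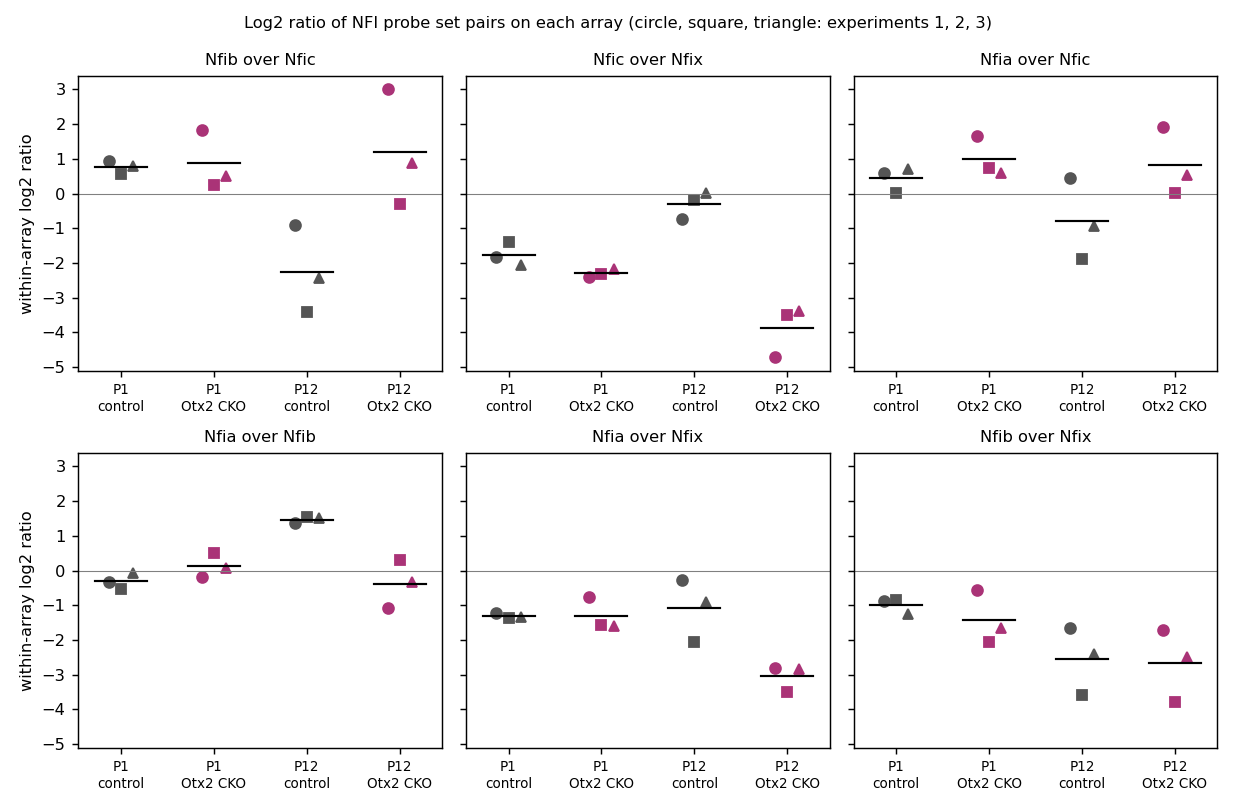
Log2 ratio of the brightest probe sets of 2 NFI genes on the same array, for the 6 pairs in the 4 groups (grey: control; purple: Otx2 CKO; bars: group means). At P12 the genotypes are apart for Nfib over Nfic, Nfic over Nfix, Nfia over Nfib and Nfia over Nfix, and overlap for Nfia over Nfic and Nfib over Nfix; the height of a ratio has no meaning across pairs.

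Across the 12 arrays the normalized log2 values of *Nfia*, *Nfib* and *Nfix* ran together, with r of 0.74 for *Nfia* and *Nfib*, 0.77 for *Nfia* and *Nfix* and 0.70 for *Nfib* and *Nfix*. *Nfic* had r of 0.26 with *Nfia*, −0.28 with *Nfib* and 0.33 with *Nfix*. These are descriptions over 12 arrays that fall into 4 groups. Among 10864 genes, those with the highest correlation with *Nfix* were *Nrp2*, a receptor of semaphorins and VEGF (r = 0.99), *Gpr149* (0.99) and *Chn2*, a Rac GTPase-activating protein (0.98). For *Nfib* they were 2310067E19Rik (0.99), *Ankrd44* (0.97) and *Pkia*, an inhibitor of protein kinase A (0.97). For *Nfia* they were *Zbtb20*, a zinc finger transcription factor, *Unc5c*, a netrin receptor, and *Ap1s2*, an adaptor subunit of vesicle coats (0.97, 0.97 and 0.96). For *Nfic* they were *Ppp1r13b* (0.98), *Gpatch2l* (0.97) and *Dscaml1*, a cell adhesion molecule (0.97).

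A list of 21 genes known as partners or targets of NFI in neural tissue was described beside the family. At P12, 18 of the 21 were tested, 7 were called higher and 1 lower, and the median log2 change was 0.72, beside 0.08 over all tested probe sets. Of all tested probe sets 6.78% were called higher and 7.09% lower. The list was chosen with earlier results of these arrays known. *Cntn2*, an axonal adhesion molecule and NFI target of maturing neurons, gave 20.7, 24.3 and 16.4 in control and 216.6, 208.1 and 135.7 in *Otx2* CKO retina (log2 change 1.96 ± 0.37, adjusted p 0.00242, limma). It is also among the raised genes that the study tabulated from these arrays. *Insc*, an adaptor that orients the spindle in dividing progenitors, gave 12.2, 63.7 and 25.5 against 195.1, 157 and 122.2 (log2 change 1.45 ± 0.36, adjusted p 0.0154, limma). *Notch1*, the receptor that keeps progenitors undifferentiated and promotes glia, gave 153.9, 229.6 and 154.5 against 595.3, 541.5 and 449.5 (log2 change 1.13 ± 0.17, adjusted p 0.000495, limma). None of these 3 genes overlapped between the genotypes, before or after normalization. Of all tested probe sets 20.8% were apart and higher in the deposited signals and 12.9% after normalization. *Cntn2* and *Insc* passed the signal limit only through the *Otx2* CKO group, as their control means were 20.5 and 33.8.

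*Ephb1*, a receptor for ephrins in axon guidance, gave 78.4, 197.9 and 113.1 in control and 371.4, 361.1 and 347.8 in *Otx2* CKO retina (log2 change 1.12 ± 0.27, adjusted p 0.0130, limma). The other 3 called higher were *Gfap*, the glial intermediate filament, *Slc1a3*, the glial glutamate transporter, and *Ski*, a corepressor, with log2 changes of 0.80 to 0.97. *Fabp7*, a lipid-binding protein of radial glia, was the member called lower, at −2.35 ± 0.55 (adjusted p 0.0113, limma). It gave 234.9, 154.7 and 104.8 in control and 39.8, 8.4 and 12.8 in *Otx2* CKO retina, so it moved opposite to *Nfib* and *Nfix*. It was also the only listed gene called at P1, where 9 were tested (log2 change −3.06, adjusted p 0.0309, limma). The study listed the same *Fabp7* probe set as lower in *Otx2* CKO retina at P12 on these arrays, so its direction there is not independent evidence. The number called higher at P12 was 3 without P12 control replicate 3 or P12 *Otx2* CKO replicate 3, 2 with each age fitted alone, and 12 with either block. The share of all tested probe sets called higher moved with it, from 6.78% to 4.46% and 4.01% without these arrays, 1.92% with each age alone, and 11.7% and 19.1% with the number block and the block within age.

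**Figure D4:**
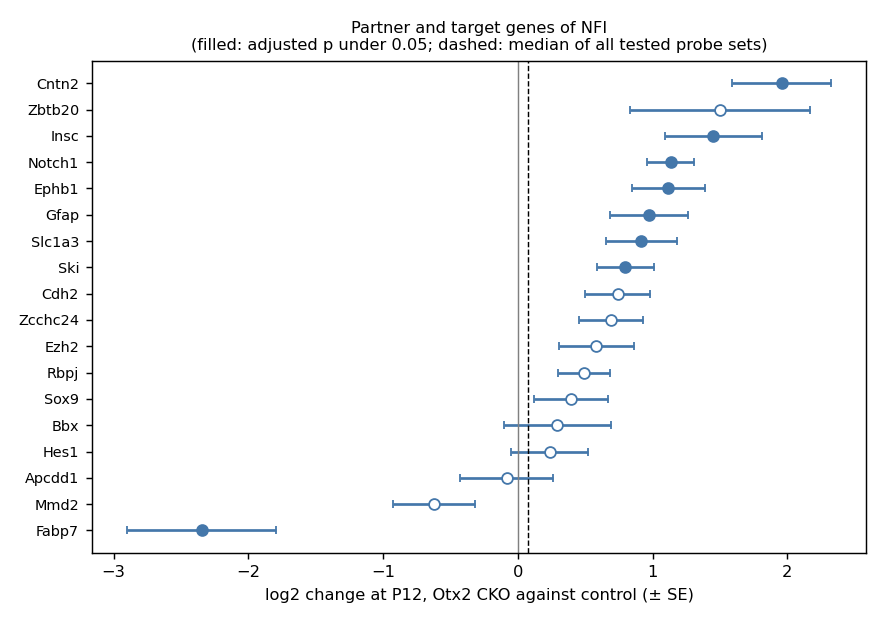
Log2 change at P12 (Otx2 CKO against control, ± SE) of the brightest probe set of the 18 tested genes on the list of NFI partners and targets. The changes run from −2.35 for Fabp7 to 1.96 for Cntn2, and 7 genes are called higher and 1 lower.

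Marker genes of retinal cell types moved with genotype at P12 as well. The marker counts given here and in the next paragraph stand beside 6.78% of all tested probe sets called higher and 7.09% lower. Of the tested photoreceptor markers 10 of 10, and of the bipolar markers 8 of 8, were called lower, with median log2 changes of −4.64 and −2.82, and their summed normalized signal was 26662 to 29053 and 4662 to 5186 in control against 662 to 1393 and 360 to 452 in *Otx2* CKO retina. Müller glia markers were called higher in 3 of 12 (median 0.53, highest *Apoe* at 1.80) and summed to 9421 to 10677 in control and 14371 to 15912 in *Otx2* CKO retina. Amacrine markers were called higher in 4 of 12 (median 0.91, highest *Pax6* at 1.30), with sums of 6026 to 6163 and 8859 to 9388.

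Microglia markers were called higher in 6 of 6 (median 1.74), astrocyte markers in 2 of 4 (median 0.96), progenitor markers in 2 of 5 (median 1.003), retinal pigment epithelium markers in 2 of 6 (median 0.50) and endothelial and pericyte markers in 1 of 5 (median −0.10). Their sums in control and *Otx2* CKO retina were 317 to 708 and 1131 to 2364 for microglia, 208 to 253 and 485 to 548 for astrocytes, 369 to 739 and 883 to 1446 for progenitors, 582 to 1520 and 1014 to 2772 for pigment epithelium, and 865 to 1621 and 1080 to 1418 for vessels. Of horizontal cell markers 1 of 5 was called higher and 3 lower, of ganglion cell markers 0 of 7 were called, the 1 tested sclera marker was not called, and no lens marker was tested. No listed marker was at 0 on all arrays. Among the Müller glia and amacrine markers on these lists, the highest changes were 1.80 for *Apoe* and 1.30 for *Pax6*. The bright *Nfix* probe sets (2.90 to 3.24) and the brightest *Nfib* probe set (2.78) were above both. The dimmer *Nfix* 1459909_at (1.04) and the *Nfia* probe sets (0.61 to 1.18) were below both. *Nfib* 1434101_at (1.74) was below *Apoe*. Marker changes of whole retina do not measure how far a change in cell types could move an NFI gene. The part of these cell types in the NFI values was not tested.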

How the data were processed

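Total RNA of mouse retina was measured on 12 Affymetrix Mouse Genome 430 2.0 arrays, with 3 arrays in each of 4 groups. The authors determined the deposited signal intensity values with GeneChip Operating Software 1.4; these are linear intensity values. A scaling target is not given in the sources used here, and trimmed means differ between the arrays. Groups follow titles, source names and genotype fields, although a few descriptions contradict them. Gene symbols came from the platform annotation. Of the probe sets 64 AFFX controls were left out.

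Signals of the 12 arrays were quantile-normalized and log2(signal + 16) was fitted with lmFit and eBayes (trend) of limma 3.58.1 in R 4.3.3, 4 groups in 1 model without a block. Probe sets with a mean deposited signal of at least 50 in a compared group were tested, with Benjamini-Hochberg adjustment over all of them and a threshold of 0.05. The fit was tested on simulated data. The precision is limited by 3 arrays in each group. Within a group log2 signals correlated at 0.958 to 0.986 at P1 and 0.884 to 0.965 at P12.

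The titles number the experiments 1 to 3 at each age, and the deviations of same-numbered control and Otx2 CKO arrays from their group means correlated at 0.125 to 0.217 at P1 and 0.555 to 0.869 at P12. The numbers were therefore taken to pair the arrays. The main fit, with its counts, SE and figures, leaves this pairing out, and fits with the number as a block are given where they change a call.

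Paralog pairs used an exact permutation test on within-array log2 ratios of the probe set with the highest mean signal of each gene, and an exact sign-flip test within experiments. Named were all NFI probe sets, Otx2, up to 4 rises and 4 falls of the partner and target list at P12, and for each NFI gene the 3 genes with the highest correlation. The partner and marker genes were read on the probe set with the highest mean signal. The NFI members, the lists and the marker genes were chosen with earlier results of these data known. Alternatives were the deposited signals, 2% trimmed mean, spike and within-age scaling, offsets of 1 and 50, no filter and a limit of 100, both blocks, each age alone, no trend, the signal log ratio criterion of the study, and leaving out each array. Promoter sequences and gene positions are from RefSeq (GRCm38.p6); the positions of the probe sets were not used here. Python 3.11.15 with matplotlib 3.10.9 drew the figures.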

Additional observations from a re-analysis of the deposited data

Results flagged for a closer look

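The genotype effect on 7 NFI probe sets differed between P12 and P1 by a direct test of the difference (limma, log2 scale). For *Nfix* the P12 effect exceeded the P1 effect by 2.91 for 1423493_a_at, 2.70 for 1436363_a_at and 2.90 for 1436364_x_at, and these calls held under all 23 alternatives run for them. For *Nfib* it did so by 3.40 for 1454834_at, 2.57 for 1438244_at, 1.93 for 1434102_at and 3.01 for 1427680_a_at. The calls of 1454834_at and 1434102_at held under all 23 alternatives. That of 1438244_at was lost without P1 control replicate 1, without P1 Otx2 CKO replicate 2 and without P12 control replicate 3, and that of 1427680_a_at was lost under 10 of 23 alternatives, with an adjusted p of at most 0.0984.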

How the results depend on the processing

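The *Nfib* and *Nfix* increases at P12 kept their direction under every alternative run, and 14 of 1534 log2 changes of NFI probe sets under alternatives had the other sign, 0 of them with a call. With the deposited signals 75.7% of all calls at P12 were higher against 48.9% after normalization, and the median over all tested probe sets was 0.39 against 0.08. With each age fitted alone 33.7% were higher. Leaving out 1 array at a time gave 9 to 12 NFI probe sets called higher at P12 (10 with all arrays) and 0 to 2 lower, 2 of them without P12 control replicate 1 and 1 without P12 Otx2 CKO replicate 2. It gave 0 calls at P1 in each case, 5 to 9 for the difference of the effects (7 with all arrays), 2 to 4 higher and 0 to 3 lower for P12 against P1 control (2 and 1 with all arrays), and 6 to 15 higher for P12 against P1 Otx2 CKO retina (14 with all arrays). Of all tested probe sets 4.01% to 8.23% were then called higher at P12 and 5.17% to 7.71% lower. For the difference 0.557% to 1.68% were higher. For P12 against P1 control 15.3% to 22.7% were higher and 10.6% to 15.5% lower. In Otx2 CKO retina 9.63% to 16.1% were higher between the ages. With the experiment number as a replicate block 1 NFI probe set was lower at P12, and with the replicate block within age 3 were lower and 12 were called for the difference of the effects. For P12 against P1 control the lower count was 3 with the number block, 3 with an offset of 1, 2 with trimmed mean scaling and with no filter, and 0 with the deposited signals, spike scaling and a limit of 100, and the higher count was 8 of 11 with the deposited signals and with spike scaling, where 82.7% and 47.2% of all tested probe sets were called higher. The shares of all called lower were, in the order of these settings, 20.4%, 14.4%, 15.2%, 8.72%, 1.49%, 4.63% and 15.4%. The blocks took away no call of the family. Beside the calls already given they added, for the difference of the effects, 1434101_at and 1448288_at of *Nfib* with either block and 1459909_at of *Nfix* with the block within age (adjusted p 0.0459, limma), and with the number block over both ages 1438236_at of *Nfia* (higher), 1427680_a_at and 1438244_at of *Nfib* (lower) for P12 against P1 control and 1448288_at of *Nfib* (higher) for P12 against P1 Otx2 CKO retina. Without P1 Otx2 CKO replicate 1 the P1 change of the *Nfia* to *Nfix* ratio turned to −0.27 and that of *Nfib* to *Nfic* to −0.39, from values near 0, and over all arrays left out in turn they ran from −0.27 to 0.15 and from −0.39 to 0.42. Leaving out P12 Otx2 CKO replicate 1 together with the deposited signals was chosen after seeing the data, since that array had the highest trimmed mean, and gave 12 higher and 0 lower at P12. There 8.86% of all tested probe sets were called higher and 6.2% lower. The causes of these shifts were not tested.

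With 3 arrays a group a p-value of the ratio tests cannot fall below 0.1. Dim probe sets limit what P1 can show, and no detection calls were used here, so a low signal is not a statement of absence. The fit shares 1 spread per probe set over both ages, so that P12 tests also use the scatter of the P1 arrays.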
